A study of Mus musculus with 203 samples.

Results

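The receptors for acetylcholine were examined in neurons of the nucleus ambiguus, the brainstem nucleus that holds the parasympathetic neurons of the heart together with the motor neurons of the larynx. The members were 10 of the 24029 genes in the count table, taken by symbol. They were 6 nicotinic subunit genes (Chrna3, Chrna4, Chrna5, Chrna7, Chrnb2 and Chrnb4) and 4 muscarinic receptor genes (Chrm1, Chrm2, Chrm3 and Chrm4). All 10 were found in the table and had reads in each neuron type. They were followed across all neurons of the series, of which 53 were ACP (ambiguus cardiopulmonary), 98 were ACV (ambiguus cardiovascular) and 52 were Larynx neurons by the deposited assignment.

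All neurons came from wild-type C57BL/6 mice (C57BL/6NCrl by the methods of the study) and were aspirated from brainstem slices at postnatal day 2 to 4 after a fluorescent cholera toxin B tracer had labeled them from the heart or from the cricothyroid muscle of the larynx. No treatment or allele separated the groups. Heart and larynx neurons came from different mice, so the target organ cannot be told apart from the mice and the labeling. The mouse and the plate of each neuron are not given, and each type was therefore treated as a single sample, with no test and no p-value in any comparison. ACP and ACV had been assigned by clustering the same counts, so a difference between them is a description.

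Nicotinic receptors are cation channels that acetylcholine opens directly, built from alpha subunits alone or from alpha with beta subunits. The alpha4 and beta2 subunits form the most common high-affinity receptor of the brain, alpha3 with beta4 is the pair best known from autonomic ganglia, alpha5 is an accessory subunit and alpha7 can form a channel by itself. Muscarinic receptors act through G proteins. M1 and M3, the products of Chrm1 and Chrm3, couple to Gq and phospholipase C beta and close the M current. M2 and M4 couple to Gi and Go, lower cyclic AMP, open inwardly rectifying potassium channels of the GIRK family and, on cholinergic neurons, often serve as autoreceptors. Motor and preganglionic neurons of the ambiguus use acetylcholine as their own transmitter.

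Some of the nicotinic members are neighbors on chromosome 9 (GRCm38, which is mm10, by the GENCODE vM21 annotation). Chrna5 lies at chr9:54980880-55007779 on the plus strand, Chrna3 at chr9:55010111-55026562 on the minus strand and Chrnb4 at chr9:55028154-55048779 on the minus strand. Chrna4 lies at chr2:181018380-181043546, Chrna7 at chr7:63098692-63212569 and Chrnb2 at chr3:89746195-89764632, all on the minus strand. The muscarinic genes are scattered, with Chrm1 at chr19:8663789-8683587 and Chrm2 at chr6:36388084-36528414 on the plus strand, Chrm3 at chr13:9875486-10360847 on the minus strand and Chrm4 at chr2:91927249-91928688 on the plus strand. Exons of Chrnb2 overlap those of Adar on the opposite strand over 1365 bp, or 16.3% of its exon length, and Chrm1 and Chrm2 overlap noncoding RNAs over 5.07% and 2.35% of their exon length. The strand setting of the authors' counting is not given, so reads in these stretches cannot be assigned to a strand and the values of these 3 genes are uncertain to that extent.

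The 250 bases before the annotated start (RefSeq, GRCm38.p6) are shown for the 3 genes whose level separated the types most stably and for Chrnb2, which was at a like level in each type. Sequences run 5′ to 3′ on the strand of the gene, and capitals mark the GC box, GGGCGG or its reverse complement CCGCCC.
Chrna3, chr9:55026563-55026812, - strand: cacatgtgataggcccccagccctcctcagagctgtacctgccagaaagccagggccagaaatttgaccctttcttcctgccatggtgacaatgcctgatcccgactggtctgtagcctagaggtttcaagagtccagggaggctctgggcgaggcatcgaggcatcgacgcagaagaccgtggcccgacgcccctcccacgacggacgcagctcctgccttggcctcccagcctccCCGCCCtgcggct
Chrna4, chr2:181039178-181039427, - strand: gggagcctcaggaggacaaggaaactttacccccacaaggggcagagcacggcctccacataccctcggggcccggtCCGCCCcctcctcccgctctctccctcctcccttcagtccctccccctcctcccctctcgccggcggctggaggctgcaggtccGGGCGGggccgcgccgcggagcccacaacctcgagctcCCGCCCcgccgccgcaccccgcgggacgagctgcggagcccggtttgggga
Chrm2, chr6:36387834-36388083, + strand: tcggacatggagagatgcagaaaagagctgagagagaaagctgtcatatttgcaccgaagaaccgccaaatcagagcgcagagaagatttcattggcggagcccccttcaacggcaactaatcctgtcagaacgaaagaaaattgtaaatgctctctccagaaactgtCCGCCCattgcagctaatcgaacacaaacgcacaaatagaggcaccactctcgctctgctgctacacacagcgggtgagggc
Chrnb2, chr3:89764633-89764882, - strand: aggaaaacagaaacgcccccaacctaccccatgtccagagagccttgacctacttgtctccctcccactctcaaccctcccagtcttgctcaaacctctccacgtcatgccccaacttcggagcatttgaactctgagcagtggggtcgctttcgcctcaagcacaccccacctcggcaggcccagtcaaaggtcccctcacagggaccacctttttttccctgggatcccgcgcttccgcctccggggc

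A window was found for 9 of the 10 members, and for Chrna5 with 2 alternative starts. In the windows shown, the GC box was present 1 time for Chrna3, 3 times for Chrna4, 1 time for Chrm2 and 0 times for Chrnb2, against 32.7% of 32851 windows of the same length that held it at least 1 time on either strand. No window of a member held TATAAA, which 12.4% of all windows held. The GC content was 63.2% for Chrna3, 74.4% for Chrna4, 50% for Chrm2 and 59.6% for Chrnb2, with a median of 52.4% over all windows. The start of Chrna4 in RefSeq lies within the span that GENCODE gives the gene.

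Levels are given as counts per 1000000 (CPM) of each neuron's counts outside Rn45s, a ribosomal RNA gene that took a median of 34.3% of the counts in ACP, 35.8% in ACV and 58.6% in Larynx neurons. Total counts ran from 542162 to 3292763 per neuron, and counts outside Rn45s had medians of 1115375, 1120511.5 and 560892 in ACP, ACV and Larynx neurons. Scaling by totals that include Rn45s moved the median log2 ratio over all genes from -0.03 to 0.52 for ACP against Larynx and from -0.02 to 0.45 for ACV against Larynx, and the share of genes past 2-fold that were higher in the heart neurons from 44.5% to 86.6% and from 40.1% to 80.4%. The motor neuron markers Chat, Slc18a3 and Isl1 had a median above 0 in every type, and Slc18a3 had medians of 917 CPM in ACP, 673 CPM in ACV and 1492 CPM in Larynx neurons. In 4 ACV neurons rarely detected genes were shared far more than in other pairs (Jaccard index 0.241 to 0.522 over their 6 pairs, against a median of 0.0184 over all pairs and a next highest of 0.189). Without these 4 neurons no member moved across 2-fold, and the mean level of Chrna3 in ACV changed from 59.8 to 57.2 CPM and that of Chrm2 from 81.1 to 77.6 CPM.

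Transcripts of other cells were present in many neurons. Reads of the microglial complement genes C1qa and C1qc were found in 30.2% and 37.7% of ACP, 38.8% and 32.7% of ACV and 32.7% and 38.5% of Larynx neurons. The 14 glial and endothelial markers summed to a median of 453 CPM in ACP (0 to 7123), 337 CPM in ACV (0 to 10981) and 395 CPM in Larynx neurons (0 to 4540), with 8, 8 and 10 of them at a median of 0. A share of neurons with a read of a member that lay at or below the higher of these shares in the same type was therefore not read as expression by the neurons. Chrnb2, Chrna4 and Chrm2 stood above it in all types and Chrna3 in ACP and ACV neurons, while Chrna5, Chrna7, Chrnb4, Chrm1, Chrm3 and Chrm4 did not in any type, so that differences of these 6 genes between types describe read levels alone.

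Per kilobase of exon, so that genes can be compared, the same 4 members led in each type, in a different order. In ACP neurons the mean level per kb was highest for Chrna4 (23.8 CPM), followed by Chrnb2 (20.9), Chrna3 (14.5) and Chrm2 (4.58). In ACV neurons the order was Chrnb2 (16.6), Chrm2 (13.4), Chrna3 (11.4) and Chrna4 (7.83). In Larynx neurons it was Chrna4 (25.9), Chrnb2 (21.03), Chrm2 (5.81) and Chrna3 (2.96). The other 6 members had at most 2.64 CPM per kb in any type. The value of Chrm4 per kb is uncertain, because its annotated exon of 1440 bp holds the coding sequence alone. It would be overstated if the authors counted reads over a longer exon. Summed over each class, the nicotinic members had 64.3, 39.9 and 53.04 CPM per kb and the muscarinic members 6.74, 16.4 and 10.48 CPM per kb in ACP, ACV and Larynx neurons, so the nicotinic sum was the higher one in all types and the muscarinic sum was highest in ACV. Lengths rest on GENCODE vM21, which may not be the annotation the authors counted on.

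**Figure D1:**
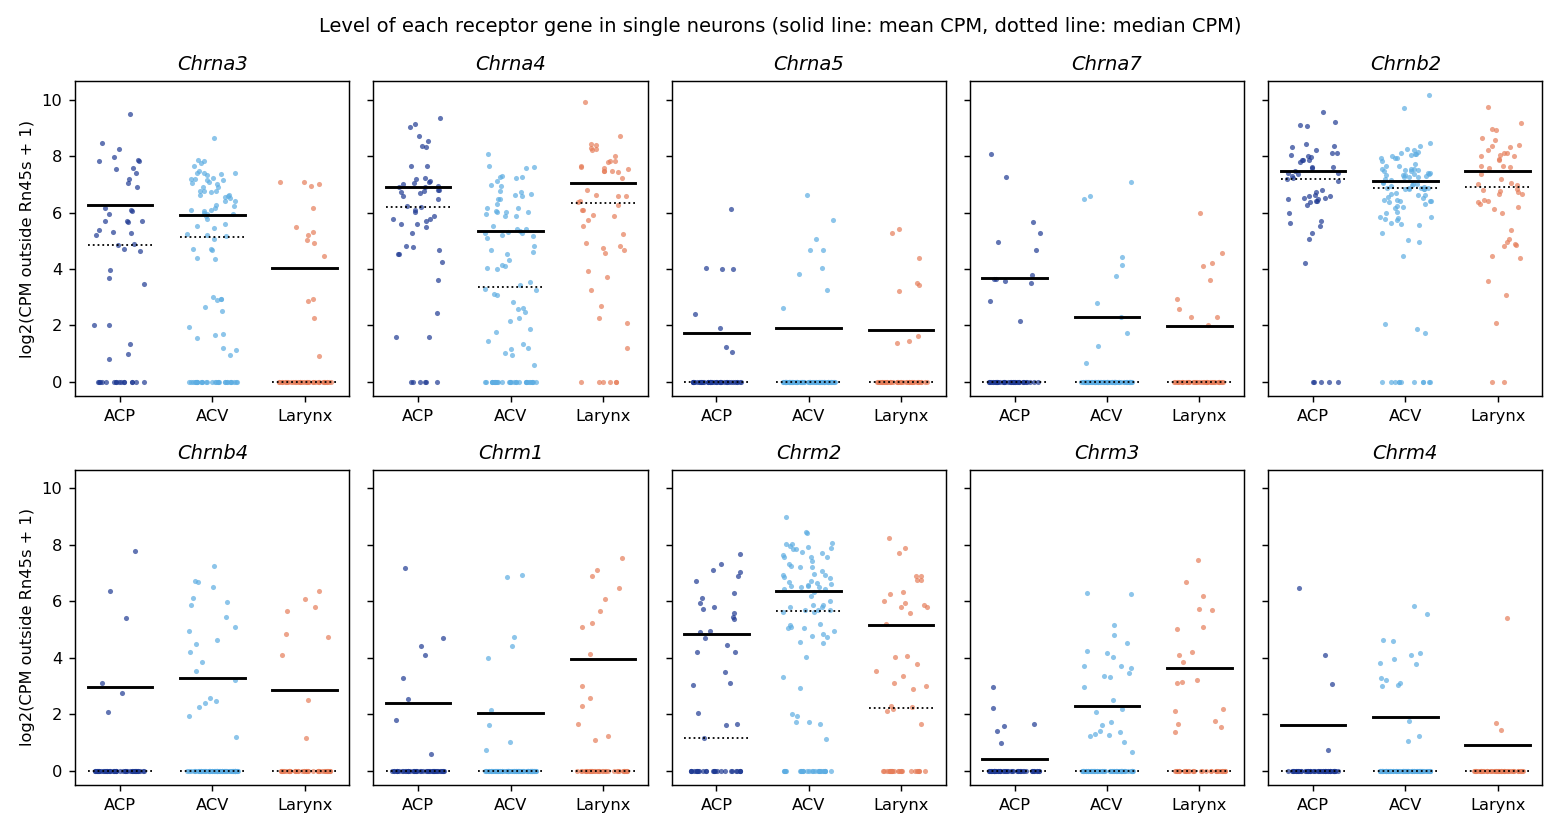
Each point is 1 neuron (53 ACP, 98 ACV, 52 Larynx), placed by its log2(CPM + 1) for the gene named above the panel, with a solid line at the log2 of the type's mean CPM + 1 and a dotted line at that of its median. Chrnb2 fills the upper range in all types, Chrna3 thins out in Larynx neurons, Chrna4 sits lower and Chrm2 higher in ACV neurons, and most points of the other genes lie at 0.

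Chrnb2, which encodes the beta2 subunit, was the most widely detected member. Its level ran from 0 to 760 CPM in ACP with a median of 143.99, from 0 to 1140 CPM in ACV with a median of 115.7, and from 0 to 846 CPM in Larynx neurons with a median of 119.12. Reads were found in 48 of 53 ACP (90.6%, 95% interval 79.3 to 96.9), 87 of 98 ACV (88.8%, 80.8 to 94.3) and 50 of 52 Larynx neurons (96.2%, 86.8 to 99.5). Intervals for shares are exact Clopper-Pearson intervals and cover counting error only. The means were 175.2 ± 157.9 (SD over 53 neurons), 139.04 ± 151.9 (98 neurons) and 176.3 ± 169.4 CPM (52 neurons), and the quartiles of the 3 types overlapped. Its log2 ratios as reported lay between -0.34 and 0.33. Over the 12 alternatives they ran from -0.52 (ACV against Larynx) to 0.59 (ACP against ACV), and none passed 2-fold. The ratios against Larynx changed sign with the scaling, to 0.44 for ACP and 0.11 for ACV under totals with Rn45s.

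Chrna4, the alpha4 partner of beta2, was lower in ACV than in the other types. It ran from 0 to 654 CPM in ACP with a median of 71.97, from 0 to 272 CPM in ACV with a median of 9.31, and from 0 to 972 CPM in Larynx neurons with a median of 79.2. The upper quartile of ACV, 62.7 CPM, lay below the medians of both other types, although the full ranges overlapped. Reads were found in 88.7% of ACP (76.97 to 95.7), 69.4% of ACV (59.3 to 78.3) and 88.5% of Larynx neurons (76.6 to 95.6). The mean was 119.3 ± 148.4 CPM in ACP, 39.3 ± 56.5 CPM in ACV and 130.01 ± 163.01 CPM in Larynx neurons (SD over neurons). Folds and log2 ratios are of mean CPM + 1 throughout. ACP exceeded ACV 2.98-fold (log2 ratio of mean CPM + 1 of 1.58, 1.47 to 2.21 over 12 alternatives), and Larynx exceeded ACV 3.25-fold (log2 ratio -1.70, -2.22 to -1.31). ACP and Larynx neurons had a log2 ratio of -0.12, which turned to 0.19 under totals with Rn45s, and their order is not settled by these data.

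Chrna3, the alpha3 subunit, showed the other order, with both heart types above Larynx. It ran from 0 to 729 CPM in ACP with a median of 27.9, from 0 to 401 CPM in ACV with a median of 33.8, and from 0 to 135.7 CPM in Larynx neurons with a median of 0. Reads were found in 37 of 53 ACP (69.8%, 55.7 to 81.7), 68 of 98 ACV (69.4%, 59.3 to 78.3) and 15 of 52 Larynx neurons (28.8%, 17.1 to 43.1), the last share being below those of the microglial genes in the same neurons. The means of 76.1 ± 127.9, 59.8 ± 73.3 and 15.6 ± 36.4 CPM (SD over neurons) gave, with 1 CPM added to each, a 4.65-fold difference for ACP against Larynx (log2 ratio 2.22, 1.91 to 2.57 over the alternatives) and a 3.67-fold difference for ACV against Larynx (log2 ratio 1.88, 1.56 to 2.47). ACP and ACV differed by a log2 ratio of 0.34, with medians in the opposite order to the means. The Larynx neurons were the shallower ones, and within them the level of Chrna3 had a rank correlation of 0.45 with the counts outside Rn45s (52 neurons). After thinning each neuron to 200000 counts the shares with a read were 67.9%, 65.3% and 26.5%, with 3 Larynx neurons left out as too shallow.

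Chrnb4, the beta4 subunit that pairs with alpha3 in ganglia, had reads in fewer neurons than Chrna3 in each type. It was found in 11.3% of ACP, 22.4% of ACV and 17.3% of Larynx neurons, with means of 6.82, 8.76 and 6.27 CPM, a median of 0 in each type and highest values of 221.04, 152.98 and 81.1 CPM. A single ACP neuron carried 61.2% of the summed ACP level. Of the neurons with a read of Chrnb4, 6 of 6 ACP, 15 of 22 ACV and 4 of 9 Larynx neurons also had a read of Chrna3. Chrna5, the third gene of the chromosome 9 cluster, was found in 15.1%, 9.18% and 17.3% of ACP, ACV and Larynx neurons, with means of 2.35, 2.80 and 2.57 CPM. Chrna5 did not pass 2-fold in any comparison or alternative. Chrnb4 was called in none as reported, but was lower in ACP than in ACV without the highest neuron of each type (log2 ratio -1.16) and in neurons with at most 20 CPM summed over the inhibitory neuron markers Gad1, Gad2 and Slc6a5 (-1.71), and under that limit higher in ACV than in Larynx (1.11). Over all neurons of a type, zeros included, the rank correlation of Chrna3 with Chrnb4 was 0.37 in ACP, 0.02 in ACV and 0.14 in Larynx neurons, that of Chrna5 with Chrnb4 was 0.19, 0.17 and 0.45, and that of Chrna3 with Chrna5 was 0.06, 0.11 and 0.20. These neurons share their depth and most of their zeros, so the correlations are a description.

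Chrna7, the alpha7 subunit, was sparse. It was found in 13 of 53 ACP (24.5%, 13.8 to 38.3), 11 of 98 ACV (11.2%, 5.74 to 19.2) and 10 of 52 Larynx neurons (19.2%, 9.63 to 32.5), with highest values of 267.2, 135.1 and 62.5 CPM. After 1 CPM was added to each, the mean of 11.9 CPM in ACP was 2.62-fold that of ACV (3.92 CPM) and 3.27-fold that of Larynx (2.94 CPM). A single neuron carried 42.5% of the ACP level, and both ratios fell below 2-fold when the mean of the log2 values was compared instead of the mean CPM, at log2 0.69 and 0.45. The highest ratios, 2.33 and 3.38, were those under the limit on inhibitory neuron markers. ACV and Larynx differed by 0.32, which passed 2-fold with at most 900 counts of Apoe (1.67) and under that same limit (1.04). Its shares also lay below those of the microglial genes.

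**Figure D2:**
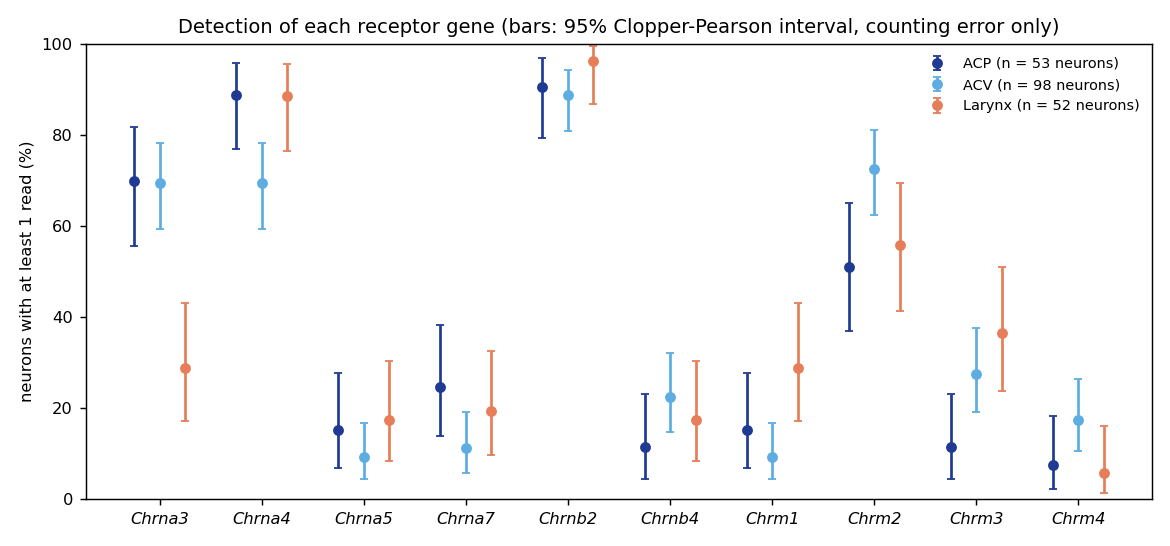
The share of neurons with at least 1 read of each gene (vertical axis, percent) is shown for ACP (n = 53), ACV (n = 98) and Larynx (n = 52) neurons, with exact 95% Clopper-Pearson intervals that cover counting error only. The Chrna3 interval of Larynx (17.1 to 43.1%) lies below those of ACP and ACV, while the intervals of the types overlap for most other genes.

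Subunits can only assemble where they are made in the same neuron, so joint detection was counted. Joint shares depend on the share of each gene, and the share expected from the single genes was not computed. Chrna4 with Chrnb2 was found in 83.02% of ACP (70.2 to 91.9), 62.2% of ACV (51.9 to 71.8) and 86.5% of Larynx neurons (74.2 to 94.4). Chrna3 with Chrnb2 was found in 67.9%, 64.3% and 28.8%, and Chrna3 with Chrnb4 in only 11.3%, 15.3% and 7.69% of ACP, ACV and Larynx neurons. At least 1 of Chrna3 and Chrna4 together with a beta member was present in 86.8%, 82.7% and 88.5% of the neurons, so the share with a possible alpha and beta pair was similar while the alpha gene differed.

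The types differed in which alpha gene was found. Reads of both Chrna3 and Chrna4 were found in 35 of 53 ACP (66.04%, 51.7 to 78.5), 46 of 98 ACV (46.9%, 36.8 to 57.3) and 14 of 52 Larynx neurons (26.9%, 15.6 to 41.02). Chrna4 without Chrna3 was the leading pattern of Larynx neurons, at 61.5% (47.02 to 74.7), against 22.6% of ACP and 22.4% of ACV neurons. Chrna3 without Chrna4 was found in 22 of 98 ACV neurons (22.4%, 14.6 to 31.99) but in 2 of 53 ACP (3.77%, 0.46 to 12.98) and 1 of 52 Larynx neurons (1.92%, 0.05 to 10.3). Neither gene had a read in 7.55%, 8.16% and 9.62% of ACP, ACV and Larynx neurons. Within a type the levels of the subunit genes tracked each other weakly, with a rank correlation of Chrna4 with Chrnb2 of 0.41 in ACP, 0.02 in ACV and 0.32 in Larynx neurons and of Chrna3 with Chrnb2 of 0.22, 0.30 and 0.04.

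Chrm2, which encodes the Gi-coupled M2 receptor, was the main muscarinic transcript and was highest in ACV neurons. It ran from 0 to 206 CPM in ACP with a median of 1.25, from 0 to 504 CPM in ACV with a median of 49.4, and from 0 to 303 CPM in Larynx neurons with a median of 3.64. The median of ACV lay above the upper quartile of ACP, 40.9 CPM, and below that of Larynx, 54.2 CPM. Reads were found in 27 of 53 ACP (50.9%, 36.8 to 64.9), 71 of 98 ACV (72.4%, 62.5 to 80.99) and 29 of 52 Larynx neurons (55.8%, 41.3 to 69.5). The means of 27.7 ± 47.4, 81.1 ± 97.9 and 35.1 ± 64.5 CPM (SD over neurons) made ACV, with 1 CPM added to each mean, 2.85-fold higher than ACP (log2 ratio of ACP to ACV -1.51, -1.89 to -1.34 over the alternatives) and 2.27-fold higher than Larynx (log2 ratio 1.18, 1.05 to 1.66). ACP and Larynx neurons had a log2 ratio of -0.33, which turned to 0.05 under totals with Rn45s. In ACP, ACV and Larynx neurons the rank correlation of Chrm2 was 0.06, -0.01 and -0.11 with the summed glial and endothelial markers and -0.06, 0.33 and 0.32 with the counts outside Rn45s, and the part of either in its level was not tested.

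Chrm4, the other Gi-coupled receptor, was rare, with reads in 4 of 53 ACP (7.55%), 17 of 98 ACV (17.3%) and 3 of 52 Larynx neurons (5.77%) and means of 2.10, 2.71 and 0.87 CPM. With 1 CPM added, which is more than its Larynx mean, it stayed just under 2-fold for ACV against Larynx (1.98-fold, log2 ratio 0.99), and passed it in 8 of 12 alternatives, with a highest value of 2.01 under the limit on inhibitory neuron markers. A single neuron carried 78.1% of the ACP level and another 91.2% of the Larynx level. Without the highest neuron of each type ACP was lower than ACV (log2 ratio -1.11).

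The Gq-coupled receptors had their highest means in Larynx neurons, at low levels throughout. Chrm3, the M3 receptor, was found in 6 of 53 ACP (11.3%, 4.27 to 23.03), 27 of 98 ACV (27.6%, 19.01 to 37.5) and 19 of 52 Larynx neurons (36.5%, 23.6 to 51.04), with highest values of 6.72, 77.2 and 174.05 CPM. The summed reads of the 53 ACP neurons came to 23 (exact Poisson interval 14.6 to 34.5, counting error only), against 355 in ACV and 352 in Larynx neurons. Its mean of 0.32 CPM in ACP was 3.71-fold below ACV (3.90 CPM) and 9.50-fold below Larynx (11.6 CPM) after 1 CPM was added to each. The difference of ACP from Larynx stayed past 2-fold in all 12 alternatives (log2 ratio -3.25, -4.79 to -1.22), whereas that from ACV was lost with the mean of the log2 values (-0.63), and that between ACV and Larynx (log2 ratio -1.36) was lost with Rn45s in the totals (-0.83), after thinning (-0.96) and with the mean of the log2 values (-0.59). The microglial genes C1qa and C1qc were also lowest in ACP by their means, at 14.5 and 16.7 CPM against 66.5 and 59.2 CPM in ACV and 33.3 and 48.6 CPM in Larynx, and their part in the level of Chrm3 was not tested.

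Chrm1, the M1 receptor, was found in 8 of 53 ACP (15.1%, 6.75 to 27.6), 9 of 98 ACV (9.18%, 4.29 to 16.7) and 15 of 52 Larynx neurons (28.8%, 17.1 to 43.1). Its means were 4.22, 3.12 and 14.4 CPM and its highest values 145.4, 122.5 and 183.9 CPM. After 1 CPM was added to each mean, Larynx was 2.96-fold higher than ACP (log2 ratio -1.56) and 3.74-fold higher than ACV (log2 ratio -1.90). The first was lost under totals with Rn45s (-0.62), with at most 900 counts of Apoe (-0.52) and with the mean of the log2 values (-0.73), and the second with the mean of the log2 values (-0.94). A single neuron carried 65.03% of the ACP level, and without the highest neuron of each type the ratio of ACP to Larynx was -2.27. ACP against ACV, at 0.34, ran from -1.52 to 2.93 over the alternatives. Among the markers listed for glutamatergic and inhibitory neurons, Slc17a6, Gad1 and Gad2 had their highest means in Larynx neurons. Slc6a5 did not, with means of 53.4 CPM in ACP, 18.4 CPM in ACV and 30.5 CPM in Larynx neurons. The part of these markers in the level of Chrm1 was not tested. Slc17a6, a marker of glutamatergic neurons, had a median of 7.83 CPM in ACP, 7.45 CPM in ACV and 74.7 CPM in Larynx neurons, and its rank correlation with Chrm1 was 0.45, 0.13 and 0.30. Reads of Slc17a6 were found in 66.04% of ACP, 71.4% of ACV and 82.7% of Larynx neurons. Whether the labeled neurons themselves made it was not tested. Gad1, Gad2 and Slc6a5 summed to a median of 26.6 CPM in ACP (0 to 1787), 8.09 CPM in ACV (0 to 1774) and 56.3 CPM in Larynx neurons (0 to 926), and the rank correlation of this sum with Chrm1 was 0.27, 0.12 and 0.33, while that of the motor neuron marker Slc18a3 was -0.18, -0.13 and -0.39. In the 25 ACP, 58 ACV and 21 Larynx neurons with at most 20 CPM over the 3 inhibitory markers, Chrm1 was found in 8%, 6.90% and 9.52% of the neurons, the ratio of ACV to Larynx turned from -1.90 to 0.34 and that of ACP to Larynx, -1.18, was no longer called because neither type reached the detection minimum.

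By coupling, reads of Chrm2 or Chrm4 were found in 56.6% of ACP, 73.5% of ACV and 55.8% of Larynx neurons, and reads of Chrm1 or Chrm3 in 24.5%, 31.6% and 53.8%. Reads of the Gi class without the Gq class were found in 41.5% of ACP (28.1 to 55.9) and 50% of ACV (39.7 to 60.3) but in 21.2% of Larynx neurons (11.1 to 34.7). Shares of Chrm1, Chrm3 and Chrm4 were not read as expression, so these classes describe reads alone. Under the limit on inhibitory neuron markers, Chrm1 was found in 8%, 6.90% and 9.52% of ACP, ACV and Larynx neurons. Chrm3 was then found in 12%, 31.03% and 23.8%, and the part of other cells in the classes was not tested. No muscarinic member had a read in 33.96% of ACP (21.5 to 48.3), 18.4% of ACV (11.3 to 27.5) and 25% of Larynx neurons (14.03 to 38.9). A median of 4 of the 10 members was detected per neuron in each type. Chrm2 without Chrna4 was found in 18.4% of ACV and 3.77% of ACP neurons and Chrna4 without Chrm2 in 15.3% of ACV and 41.5% of ACP neurons. These joint shares depend on the share of each gene, which differed between ACP and ACV, and do not show that the genes exclude each other. Within a type the levels of Chrm2 and Chrna4 had rank correlations of only 0.07 in both ACP and ACV neurons.

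**Figure D3:**
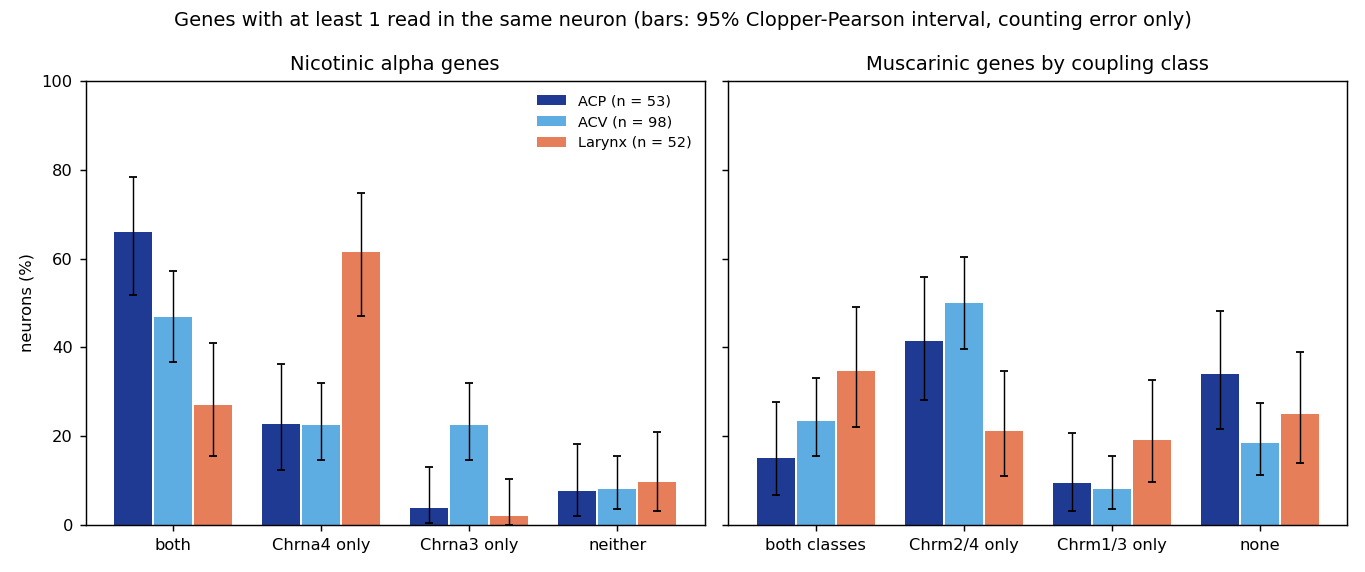
Bars give the percentage of ACP (n = 53), ACV (n = 98) and Larynx (n = 52) neurons with at least 1 read of the named combination, for Chrna3 and Chrna4 on the left and for the Gi-coupled (Chrm2, Chrm4) and Gq-coupled (Chrm1, Chrm3) receptors on the right, with exact 95% Clopper-Pearson intervals for counting error. Chrna4 alone leads in Larynx neurons (61.5%), both alpha genes together lead in ACP neurons (66.04%), and Chrm2 or Chrm4 alone leads in ACV neurons (50%). Shares of Chrm1, Chrm3 and Chrm4 were not read as expression.

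In the comparisons of types, a gene was called when its mean CPM + 1 differed at least 2-fold between types among genes with a read in at least 10% of either type. For ACP against ACV, 4 of the 10 members were called, with Chrna4 and Chrna7 higher in ACP and Chrm2 and Chrm3 higher in ACV, where 13.9% of the 13356 genes tested were called (7.55% higher in ACP and 6.31% higher in ACV). For ACP against Larynx, 4 of the 9 members that passed the detection minimum were called, with Chrna3 and Chrna7 higher in ACP and Chrm1 and Chrm3 higher in Larynx, where 18.2% of 13256 genes were called (8.09% higher in ACP and 10.1% higher in Larynx). For ACV against Larynx, 5 of the 10 members were called, with Chrna3 and Chrm2 higher in ACV and Chrna4, Chrm1 and Chrm3 higher in Larynx, where 19.6% of 13297 genes were called (7.87% higher in ACV and 11.8% higher in Larynx). The calls of Chrna7, Chrm1 and Chrm3 in these counts describe read levels alone, because shares of these genes were not read as expression. The 3 comparisons share their neurons and are not independent of each other. The median log2 ratio of the nicotinic members was 0.34, 0.05 and 0.21 and that of the muscarinic members -0.89, -1.56 and -0.18 in the same order, beside 0.00, -0.03 and -0.02 over all genes. For ACP against Larynx only 3 muscarinic members passed the detection minimum. Their median of -1.56 is the value of Chrm1, whereas Chrm2, the main muscarinic transcript, had -0.33. Medians over so few genes do not describe a class.

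A second rule called a difference of at least 25 percentage points in the share of neurons with a read. None of the members met it for ACP against ACV, where 2.14% of genes did (1.47% higher in ACP and 0.666% higher in ACV). Chrna3 (40.97 points) and Chrm3 (-25.2 points) met it for ACP against Larynx, where 3.47% of genes did (2.5% higher in ACP and 0.973% higher in Larynx), and Chrna3 (40.5 points) met it for ACV against Larynx, where 3.69% of genes did (1.95% higher in ACV and 1.74% higher in Larynx). Chrna3 was the only member past both thresholds in both comparisons with Larynx.

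**Figure D4:**
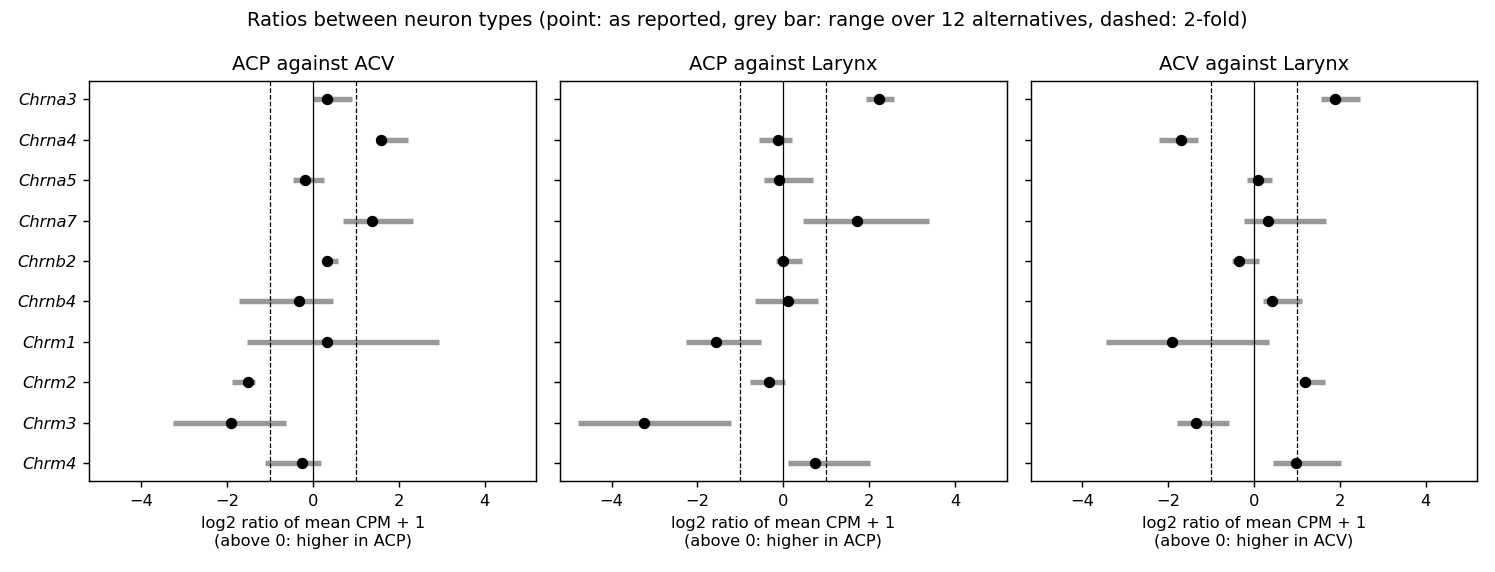
Points give the log2 ratio of mean CPM + 1 for each gene in the 3 comparisons (horizontal axis, above 0 meaning higher in the type named first), grey bars the range over 12 alternative ways of processing and dashed lines 2-fold. The bars of Chrna4 and Chrm2 stay beyond 2-fold in both comparisons with ACV, those of Chrna3 in both comparisons with Larynx and that of Chrm3 for ACP against Larynx, while the bars of Chrm1 are the widest in both comparisons with ACV.

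Other acetylcholine receptor genes added little. Of 10 further nicotinic subunit genes, Chrna1 of the muscle receptor was the most widely detected over all neurons, with reads in 16.98% of ACP, 9.18% of ACV and 13.5% of Larynx neurons, and Chrna10, Chrnd and Chrne had no read in any neuron of the series, which allows a share of neurons with a read of up to 1.48% and does not bound the share of neurons that express them. Chrm5, the remaining muscarinic receptor, had reads in 2 ACP, 0 ACV and 2 Larynx neurons, and 0 of 98 allows a share of neurons with a read of up to 3.06%. At most 2 of these nicotinic genes passed the detection minimum in a comparison, and none of them was called.

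Some genes that assist or restrain nicotinic receptors were lower in heart than in Larynx neurons. Lynx1, Lypd1, Lypd6 and Lypd6b belong to the Ly6 family of small proteins that bind these receptors. Of the 7 genes of this list in the table, 0 were higher and 4 lower in ACV than in Larynx (Lynx1, 75.5 against 387 CPM; Lypd1, 4.24 against 39.1 CPM; Lypd6, 16.8 against 74.5 CPM; Lypd6b, 6.89 against 18.8 CPM), where 11.8% of all genes tested were higher in Larynx. ACP was lower than Larynx for 3 of the 7 (Lynx1 at 127.7 CPM, Lypd6 at 12.8 CPM and Lypd6b at 7.24 CPM), where 10.1% of all genes were higher in Larynx, and higher than ACV for Lypd1 alone, at 21.2 CPM. Ly6h, the most abundant gene of the list over all neurons, had 300, 236 and 281 CPM in ACP, ACV and Larynx neurons and was not called. In ACP and ACV neurons the shares with a read of Lypd6 (30.2% and 35.7%) and Lypd6b (28.3% and 26.5%) lay below the higher microglial share. Ranges over the alternatives are given for the members alone, not for the genes of this or the following lists.

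Downstream of the Gq-coupled receptors, Gnaq and Gna11 were the most abundant genes of the list by their mean over all neurons and were not called, with means of 297, 329 and 267 CPM for Gnaq in ACP, ACV and Larynx neurons. Plcb4, a phospholipase C beta, was the gene of this list with the largest difference, at 386 CPM in ACV against 43.01 CPM in ACP and 63.7 CPM in Larynx neurons, and with Gna14 it made 1 gene lower and 1 higher of 9 in ACP against ACV, where 13.9% of all genes were called. Gna14, a Gq family alpha subunit, was higher in Larynx (43.3 CPM) than in ACP (10.6 CPM) or ACV neurons (4.65 CPM), and Plcb1 was higher in Larynx (148.4 CPM) than in ACP neurons (65.4 CPM). These were 2 of 9 genes for ACP against Larynx, where 18.2% of all genes were called. For ACV against Larynx, 1 of 9 was higher (Plcb4) and 1 lower (Gna14), where 19.6% were called. Reads of Gna14 were found in 11.3%, 12.2% and 36.5% of ACP, ACV and Larynx neurons. Each share lay below the higher microglial share of its type, so its differences describe read levels alone.

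Downstream of M2 and M4, the alpha subunits Gnao1 and Gnaz were the most abundant by their mean over all neurons of the series and were not called, with means of 326, 263 and 354 CPM for Gnao1 in ACP, ACV and Larynx neurons. Kcnj3, which encodes a GIRK subunit, was lowest in the ACV neurons where Chrm2 was highest, at 5.38 CPM against 21.1 CPM in ACP and 21.4 CPM in Larynx neurons. It was the single gene of 8 called in ACP against ACV, a share near the 13.9% of all genes called. Kcnj6 and Kcnj9, at most 4.46 and 16.9 CPM, were higher in ACP than in Larynx neurons. They were 2 of 8 genes, where 8.09% of all genes were higher in ACP. For ACV against Larynx, 1 of 8 was higher (Kcnj6) and 1 lower (Kcnj3), where 19.6% of all genes were called. Reads of Kcnj6 and Kcnj9 were found in at most 18.9% and 33.96% of a type. Both lay below the higher microglial share in every type, so their differences describe read levels alone.

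Among genes that make, move and break down acetylcholine, Ache, encoding acetylcholinesterase, had 1204, 1071 and 1115 CPM in ACP, ACV and Larynx neurons and was not called. Slc18a3, the vesicular acetylcholine transporter, had 1035, 690 and 1501 CPM and was called for ACV against Larynx alone. Bche, the second cholinesterase, set ACV apart, with 99.4 CPM and reads in 89.8% of ACV neurons, against 14.6 CPM and 43.4% in ACP and 1.33 CPM and 9.62% in Larynx neurons. It was called in all 3 comparisons.

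The genes whose CPM ranked most like a member's over all neurons, among 10591 genes with a read in at least 25% of the neurons, were Thsd7a, Atp9a and Sema3c for Chrna4 (Spearman correlations 0.47, 0.45 and 0.44), Ghsr, Vstm2a and Fam19a1 for Chrm2 (0.45, 0.44 and 0.43), Ache, Atp6v0e2 and Syt11 for Chrnb2 (0.42, 0.41 and 0.41), 4732491K20Rik, Gdf11 and Sync for Chrna3 (0.39, 0.38 and 0.37) and 4933439C10Rik, Scn8a and Kbtbd11 for Chrm3 (0.33, 0.31 and 0.31). Points of these correlations share their library and its depth, and the correlations include the differences between types. They are weak and are given as a description.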

How the data were processed

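Each deposited sample is 1 neuron sequenced by Smart-seq2, a full-length method without molecular identifiers. The authors removed neurons with few aligned reads or with high Apoe, aligned reads to mm10 (STAR 2.6.1d, per the submitters' processing notes) and deposited raw read counts of 24029 genes; the counting program, annotation and strand setting are not given in the sources used here. The deposited CPM table was not used, since its columns do not sum to 1000000. Types were taken from the deposited assignment. All 203 columns were used, and 0 per-sample columns were left out.

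Counts were scaled per 1000000 counts outside Rn45s, and types were compared by the log2 ratio of mean CPM + 1, with a call at 2-fold, and by detection shares, with a call at 25 points, both among genes with a read in at least 10% of either type. With 1 sample per type no test was run. Precision is given by exact 95% intervals for counting error only, and a count of 0 was given the limit that 3 neurons would make. Doublets were not sought, because neurons were aspirated singly. The 12 alternatives for ratios were totals with Rn45s, edgeR 4.0.16 TMM library sizes, DESeq2 1.42.0 size factors, thinning to 200000 counts, neurons with at least 1000000 counts, neurons with at most 900 counts of Apoe, means of log2 values, summed counts, each type without its highest neuron, 0.1 CPM added, ACV without 4 linked neurons, and neurons with at most 20 CPM over Gad1, Gad2 and Slc6a5. The detection minimum, a 1.5-fold threshold and a minimum of 3 reads were also varied. The fold step was tested on simulated data, with changes larger than 2-fold placed in widely detected genes alone. Calls of the sparse members were not covered by it. Named genes were all members, the 2 most abundant and all called genes of each list, and the 3 genes most like each member with a read in at least 25% of neurons. The members and lists were chosen with earlier results of these data known. The work used Python 3.11.15, numpy 2.4.6, scipy 1.17.1 and R 4.3.3.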

Additional observations from a re-analysis of the deposited data

How the results depend on the processing

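Of the 13 calls of a member at 2-fold, 7 held under all 12 alternatives that gave a ratio. Comparing means of log2 values, which weigh the rare high neurons less, left 2 members called for ACP against ACV (Chrna4 and Chrm2), 2 for ACP against Larynx (Chrna3 and Chrm3) and 3 for ACV against Larynx (Chrna3, Chrna4 and Chrm2), and put 67%, 69.03% and 55.01% of all calls higher in the first type against 54.5%, 44.5% and 40.1%. Counts of members past 25 points were 1 for ACP against Larynx (Chrna3) after thinning to 200000 counts, with neurons of at least 1000000 counts, with at most 900 counts of Apoe and with at least 3 reads, and stayed 2 under the limit on inhibitory markers, with Chrna3 and Chrna7 in place of Chrna3 and Chrm3. For ACV against Larynx they were 2 after thinning (Chrna3 and Chrna4) and 2 under that limit (Chrna3 and Chrm2). For ACP against ACV they were 1 with at least 3 reads (Chrna4) and 2 under that limit (Chrna7 and Chrm2). The ratio of Chrm1 for ACV against Larynx was reversed to 0.34 under that limit. The limit and the removal of the 4 linked ACV neurons were chosen after seeing the data. The cause of these changes was not tested. Over all genes, calls for ACP against ACV numbered 1852, but 2870 with at most 900 counts of Apoe (26, 44 and 38 neurons kept), 991 with means of log2 values and 4029 at 1.5-fold. Those for ACP against Larynx numbered 2407, but 3890 under the inhibitory limit and 5062 at 1.5-fold, and those for ACV against Larynx 2611, but 5475 at 1.5-fold. Depth was lowest in Larynx neurons, with 118492 counts outside Rn45s in the shallowest, and limits what a read count of 0 shows there. No paired analysis was possible because the neurons carry no mouse or replicate number.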
